A study of Mus musculus with 16 samples.

Results

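The thyroid transcripts described here come from the early arm of a study of overnutrition, in which male mice ate a high-fat diet and drank sucrose water (HF+SD) for 3 weeks or stayed on the control diet (CD). All libraries labelled 3 weeks were taken, 8 of the 16 in the series, with 4 wild-type C57Bl/6J mice on each diet. The mice were 8 weeks old when the diets began, and each library is the poly(A) RNA of the thyroid of 1 mouse. The other 8 libraries, with 4 mice on each diet after 6 weeks, are other animals and are used only where the time points are set side by side. The question was which transcripts of the gland differ between the diets at the earlier time. Only males of 1 strain were sequenced, and the whole tissue can hold vessels, calcitonin cells, fat and parathyroid beside the follicular cells.

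The follicular cells of the thyroid take up iodide, couple it to thyroglobulin in the follicle lumen, and later take the protein back up and digest it to release thyroid hormone. Thyrotropin (TSH) from the pituitary acts through its receptor and cAMP on each of these steps, and it also drives growth of the gland. A dense capillary net surrounds every follicle and is known to expand when the gland grows. Protein made for the lumen passes through the endoplasmic reticulum (ER), so folding enzymes are abundant in this tissue.

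Library totals were 34031421 to 42491155 counts under CD and 37283298 to 48508653 under HF+SD. Thyroglobulin took 26.8% to 29.7% of the counts in all 8, and the skeletal muscle list took at most 0.011%. The CD library of M55 stood apart, with a correlation of log2 CPM to the other CD mice of 0.972 to 0.98, and values without it are given beside the results that turn on it. CPM is the count per 1000000 counts of the library, scaled by the trimmed mean of M-values. Pth, the parathyroid hormone transcript, ran from 718 to 116728 counts within the CD and from 82 to 43410 within the HF+SD. Whether this reflects attached parathyroid was not tested. Values per mouse are given below in the order M53, M54, M55 and M96 for the CD and M7, M19y, M20y and M31 for the HF+SD.

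Of 17238 genes with enough counts to be tested, 2560 (14.9%) differed between the diets at an adjusted p under 0.05 in edgeR's quasi-likelihood test, 1564 higher (9.07%) and 996 lower (5.78%) under HF+SD. With a fold change above 2 as a further condition, 561 genes were higher (3.25%) and 242 lower (1.4%). The CPM values of the diets did not overlap for 4060 genes (23.6%). Among the 2560 changed genes 2452 did not overlap, so a lack of overlap adds little to a call. Leaving out 1 HF+SD mouse at a time lowered the count of changed genes to 1755 without M7, 1645 without M19y, 1448 without M20y and 1482 without M31. For the CD mice it was 1887 without M53, 2887 without M54, 3393 without M55 and 1914 without M96. Log2 fold changes are HF+SD over CD throughout, and the median over all tested genes was -0.0083.

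The lowest p-values belonged to Castor2, of a family that senses arginine for mTORC1, Adamtsl2, a secreted protein of the microfibril, and Ckb, the brain-type creatine kinase. Castor2 was at 36.2, 41.1, 39.3 and 41.8 CPM under CD and at 127, 126, 121 and 123 under HF+SD (log2 fold change 1.65, standard error 0.07, adjusted p = 1.1e-05). For Adamtsl2 the CD mice had 5.3, 4.17, 4.35 and 4.38 CPM and the HF+SD mice 34.8, 54.5, 41.8 and 46.2 (9.73-fold, adjusted p = 1.1e-05). Ckb lay at 21.4, 21.7, 23.7 and 14.9 CPM against 142, 152, 144 and 144 (7.14-fold, adjusted p = 1.1e-05). For all of them the spread among the HF+SD mice was small beside the gap to the CD mice, which choice by lowest p-value favours. Ckmt1, the mitochondrial creatine kinase, also rose, by 0.72 (standard error 0.09, adjusted p = 0.00106). Others with very low p-values were F10, coagulation factor X, at 0.866, 0.536, 0.746 and 0.237 CPM under CD and 10.4, 9.5, 11.2 and 11.3 under HF+SD, and Fbp1, the gluconeogenic fructose bisphosphatase, which went from 27 ± 5.63 to 109 ± 7.29 CPM (SD, n = 4). Among the lowest p-values of genes that fell were Ltbp2, a latent TGF-beta binding protein, with 30.5, 35.2, 35.4 and 40.5 CPM under CD and 8.5, 7.29, 6.9 and 8.6 under HF+SD (log2 fold change -2.18, standard error 0.12, adjusted p = 1.8e-05), and Ager, the receptor for advanced glycation end products (714 ± 104 against 262 ± 24.2 CPM, SD, n = 4, adjusted p = 0.000195). Tmem213, Aldh1a7 and Elfn1 fell by 2.31, 1.47 and 0.84 on the log2 scale.

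Most genes of thyroid hormone synthesis rose, while thyroglobulin itself did not pass the test. Of 15 list members tested, 10 were higher, 1 was lower and 4 did not pass, beside 9.07% of all genes higher and 5.78% lower. The median log2 fold change of the list was 0.69. Slc5a5, the Na+/I- symporter that brings iodide into the follicular cell, was at 303, 519.9, 418 and 79.7 CPM in the CD mice and at 1555, 1959, 1414 and 1831 in the HF+SD mice (log2 fold change 2.36, standard error 0.45, adjusted p = 0.00833). The CD mouse M96 was the lowest, and the least HF+SD mouse was still well above the highest CD mouse.

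**Figure D1:**
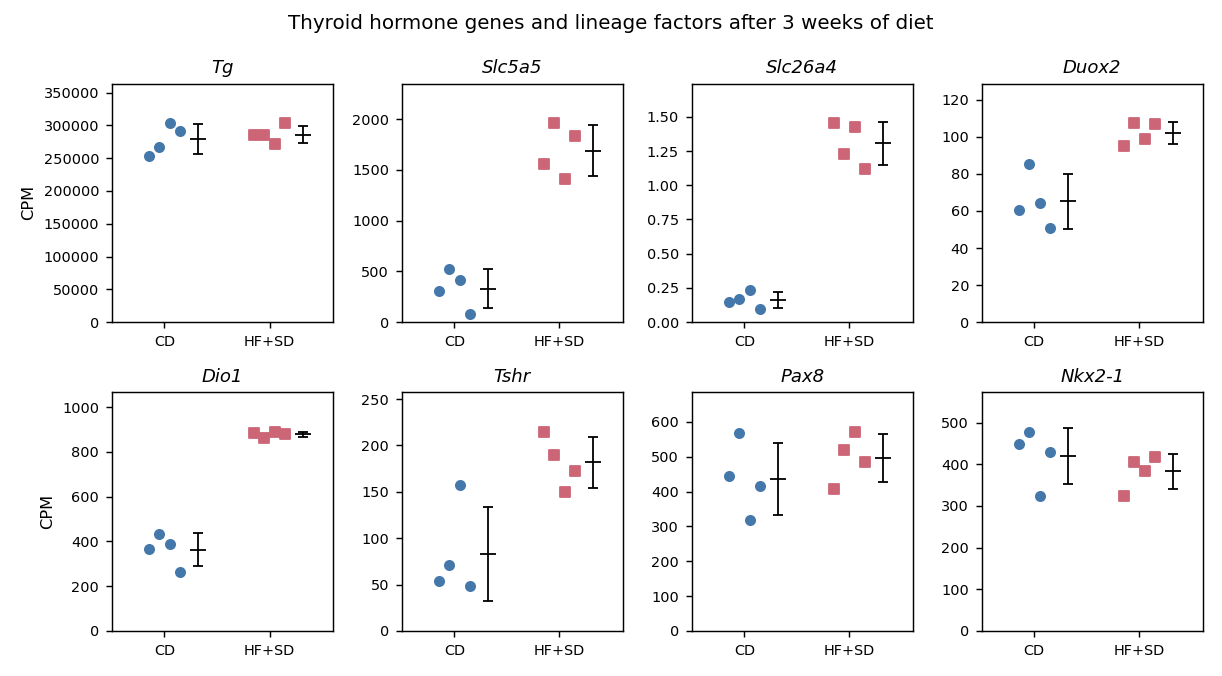
CPM of thyroid hormone genes and lineage factors in each mouse, with CD mice as blue circles, HF+SD mice as red squares, and the mean with its SD in black (n = 4 per diet). Slc5a5, Slc26a4, Duox2 and Dio1 do not overlap between the diets (Dio1 362 ± 73.3 against 878 ± 10.6 CPM, mean ± SD), while Tg, Tshr, Pax8 and Nkx2-1 do.

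Dio1, a deiodinase that also recovers iodide from used hormone, was at 364, 435, 388 and 261 CPM against 883, 864, 888 and 879 (adjusted p = 0.000598), so the HF+SD mice lay within a narrow band above the CD mice. Duox2, the oxidase that supplies hydrogen peroxide for iodination, rose less, from 60.7, 85.5, 64.2 and 50.5 to 95, 107, 99 and 107 CPM (log2 fold change 0.65, standard error 0.14, adjusted p = 0.0154). Slc26a4, the anion exchanger pendrin, rose by 3.00 (standard error 0.29, adjusted p = 0.00038) but rests on few reads, with 6, 6, 9 and 4 counts under CD and 54, 48, 55 and 53 under HF+SD. Duoxa1, the partner that matures the other thyroid oxidase, was the member that fell, from 1.41, 1.19, 1.36 and 4.21 to 0.457, 0.461, 0.259 and 0.402 CPM (log2 fold change -2.37, standard error 0.46, adjusted p = 0.00867). All HF+SD mice were below the CD mice, and M96 was far above the other CD mice. Without M96 the log2 fold change was -1.74. Cdh16, a cadherin of the follicular epithelium, rose from 727 ± 87.6 to 1303 ± 83.8 CPM (SD, n = 4, adjusted p = 0.000856).

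The TSH receptor and thyroglobulin were less clear. Tshr had 53.5, 70.9, 157 and 48.3 CPM under CD and 214, 190, 150.3 and 172 under HF+SD (log2 fold change 1.14, standard error 0.34, adjusted p = 0.0493). M55 overlapped with the HF+SD mice (exact permutation test, two-sided p = 0.0571), and the call was lost when any of the other 7 mice was left out (adjusted p = 0.0777 to 0.11). Tg (ENSMUSG00000053469.15) was at 254100, 266600, 303000 and 292100 CPM against 284800, 285000, 271300 and 303100, and the groups overlapped (log2 fold change 0.04, standard error 0.10, adjusted p = 0.841). The 4 lineage transcription factors gave no call in either direction, as in Pax8 (437 ± 104 against 496 ± 68.3 CPM, SD, n = 4, adjusted p = 0.495) and Nkx2-1 (419.7 ± 66.8 against 383 ± 42.4 CPM, adjusted p = 0.523). Of 24 genes of TSH and cAMP signalling, 18 did not pass the test. Beside 9.07% of all genes higher and 5.78% lower, 2 of this list were higher and 4 lower. Those higher were Tshr and Pde4b, a phosphodiesterase that degrades cAMP (log2 fold change 1.08, standard error 0.21, adjusted p = 0.0082). Rgs2, which dampens G protein signals, fell by 1.00 and Prkar2b, a regulatory subunit of protein kinase A, fell by 0.90 on the log2 scale (adjusted p = 0.0116 and 0.0117).

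Genes that act before and after iodination also moved. Of 18 ion channels and transporters of the epithelium, 7 were higher and 2 lower (median 0.28), beside 9.07% of all genes higher and 5.78% lower. Kcne1, the beta subunit of the KCNQ1 potassium channel, had 0.743, 1.47, 0.231 and 0.118 CPM under CD and 12.3, 14.4, 12.5 and 17.7 under HF+SD (log2 fold change 4.50, standard error 0.53, adjusted p = 0.000798), and Trpv4, a calcium-permeable channel, 39.1, 41.9, 84.3 and 35.7 against 120.4, 149, 116 and 146 (2.65-fold, adjusted p = 0.00651). Neither overlapped between the diets. Without M54, the highest CD mouse, the log2 fold change of Kcne1 was 5.28. Cftr, the chloride channel, fell from 14.1 ± 3.28 to 5.09 ± 0.764 CPM (SD, n = 4, adjusted p = 0.00122). In the list of thyroglobulin uptake and lysosomal proteases, 5 of 21 genes were higher and 1 lower, with small changes. Over all genes 9.07% were higher and 5.78% lower. Without M55, 7 genes of this list were higher and 2 lower. Npc2, a lysosomal sterol carrier, rose by 0.79, Hexa, a hexosaminidase, by 0.73, and the cathepsins Ctsb and Ctsd by 0.44 and 0.40 on the log2 scale (adjusted p = 0.0111, 0.000437, 0.0127 and 0.00695). Among genes of hormone transport and action, Slco4a1, an organic anion carrier, rose by 1.45 (standard error 0.29, adjusted p = 0.0107). Dio2, the deiodinase that makes T3 from T4, fell from 13.9, 19.2, 19.6 and 15.3 to 8.96, 6.09, 6.98 and 4.23 CPM (log2 fold change -1.38, standard error 0.22, adjusted p = 0.00321), every HF+SD mouse lying below every CD mouse. In bulk tissue, fewer cells of a type and less RNA per cell cannot be told apart, and Dio2 is also known from brown fat, whose markers are given below.

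Mitotic genes rose with few exceptions. Of 54 members tested, 50 were higher and none lower, beside 9.07% of all genes that were higher, 48 of them more than 2-fold. The median log2 fold change was 2.17, and the diets did not overlap in 52 members, beside 23.6% of all genes. The summed level of the list was 50.6 to 80.2 CPM under CD and 215 to 268 under HF+SD. Mki67, the proliferation antigen Ki-67, was at 5.17, 3.5, 2.26 and 1.59 CPM in the CD mice and 23.3, 24.6, 26.1 and 18.7 in the HF+SD mice (log2 fold change 2.89, standard error 0.31, adjusted p = 0.000598). Top2a, the topoisomerase that untangles sister chromatids, had 3.49, 3.5, 2.67 and 1.04 CPM against 15.3, 17, 16.8 and 15.8 (6.09-fold, adjusted p = 0.000773). In either gene all HF+SD mice lay well above the highest CD mouse. The largest differences of the list were those of Hmmr, a spindle protein (log2 fold change 3.94, standard error 0.33, adjusted p = 0.000218), Pbk, a mitotic kinase (3.44, standard error 0.31, adjusted p = 0.000274), Bub1, a spindle checkpoint kinase (3.34, standard error 0.60, adjusted p = 0.00599), and the kinesin Kif18b (3.29, standard error 0.50, adjusted p = 0.00272). Pimreg, a mitotic regulator outside the list, rose by 3.79 (standard error 0.45, adjusted p = 0.000801). Without M53 the log2 fold changes of Bub1 and Kif18b were 4.22 and 4.12. These genes rest on few reads in the CD mice, for example 11, 11, 4 and 7 counts of Hmmr, against 105, 143, 163 and 116 under HF+SD. The count of mitotic genes called higher was 48 to 51 when each mouse was left out.

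Because these genes move together, the promoters of some of those named above are shown for what they share. In many late cell cycle genes a CCAAT box and the cell cycle homology region (CHR), read by the DREAM and MuvB complexes, lie near the start site. RefSeq promoter windows of GRCm38.p6 were found for 45 of the 54 mitotic genes. The 200 bases before each annotated start were searched on either strand for CCAAT and for the CHR letters TTTGAA, which can share at most 1 base. Some genes have several annotated starts, so the list gave 50 windows. The sequences below run 5′ to 3′ towards the gene's start, and capitals mark CCAAT or TTTGAA or their reverse complements, ATTGG and TTCAAA.
Mki67, chr7:135716380-135716579, minus strand: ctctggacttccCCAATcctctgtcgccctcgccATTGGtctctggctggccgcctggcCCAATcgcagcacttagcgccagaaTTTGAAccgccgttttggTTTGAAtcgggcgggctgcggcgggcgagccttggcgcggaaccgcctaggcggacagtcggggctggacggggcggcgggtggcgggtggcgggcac
Top2a, chr11:99024190-99024389, minus strand: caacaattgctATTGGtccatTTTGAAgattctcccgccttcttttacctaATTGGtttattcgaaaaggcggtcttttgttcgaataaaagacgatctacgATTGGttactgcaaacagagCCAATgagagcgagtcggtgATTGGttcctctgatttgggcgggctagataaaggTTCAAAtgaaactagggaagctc
Hmmr, chr11:40733438-40733637, minus strand: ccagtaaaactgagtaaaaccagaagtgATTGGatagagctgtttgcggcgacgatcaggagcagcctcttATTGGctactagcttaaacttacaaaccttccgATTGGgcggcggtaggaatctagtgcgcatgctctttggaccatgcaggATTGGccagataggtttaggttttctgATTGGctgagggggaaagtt
Kif18b, chr11:102925125-102925324, minus strand: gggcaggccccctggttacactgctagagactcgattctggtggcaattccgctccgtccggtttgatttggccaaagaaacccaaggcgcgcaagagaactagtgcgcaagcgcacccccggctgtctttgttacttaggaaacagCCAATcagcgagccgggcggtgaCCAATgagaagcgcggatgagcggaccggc
Mki67 held 3 CCAAT boxes and 2 CHR matches, and Top2a 5 and 2. Hmmr had 5 CCAAT boxes and Kif18b 2, neither with a CHR in this window. Bub1, not printed, held 2 CCAAT boxes and no CHR, and Pbk and Pimreg were not matched. Over the list, 32 of 50 windows (64%) held a CCAAT box, beside 29.3% of 32851 windows of all genes, and 15 (30%) held a CHR, beside 12.5%. The CCAAT share was 60% (21 of 35 windows) in the DNA replication list, whose genes moved less, and the CHR share there was 8.57%. A match is a run of letters and not a binding site, and what occupies these promoters was not measured.

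Genes of DNA replication moved less evenly. There, 12 of 35 were higher and none lower, with a median of 0.20, beside 9.07% of all genes higher. Those that rose most were Rrm2, the ribonucleotide reductase subunit, at 0.842, 0.762, 0.437 and 0.592 CPM under CD and 4.82, 5.68, 5.27 and 4.31 under HF+SD (adjusted p = 0.000159), followed by Clspn, claspin of the replication checkpoint (2.32, standard error 0.26, adjusted p = 0.00064), Dtl, a licensing factor adaptor (2.31, standard error 0.31, adjusted p = 0.0016), and Pole, the catalytic subunit of polymerase epsilon (2.22, standard error 0.28, adjusted p = 0.00116). In this list, 23 members did not pass the test. Among 24 cyclins, inhibitors and E2F factors of G1, 6 were higher and 3 lower, beside 9.07% of all genes higher and 5.78% lower. Ccnd1, cyclin D1, rose from 79.5, 71.1, 55.3 and 56.5 to 105, 106, 126 and 138 CPM (log2 fold change 0.86, standard error 0.14, adjusted p = 0.00371), with no overlap between the diets. The repressor E2f8 and the activator E2f2 rose by 1.41 and 1.25 on the log2 scale (adjusted p = 0.0095 and 0.0109). Myc fell, from 15, 7.76, 25.5 and 11.3 to 6.59, 4.5, 7.5 and 8.24 CPM (adjusted p = 0.0469), but its diets overlapped and the call was lost when any mouse but M54 was left out (adjusted p = 0.0555 to 0.116).

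**Figure D2:**
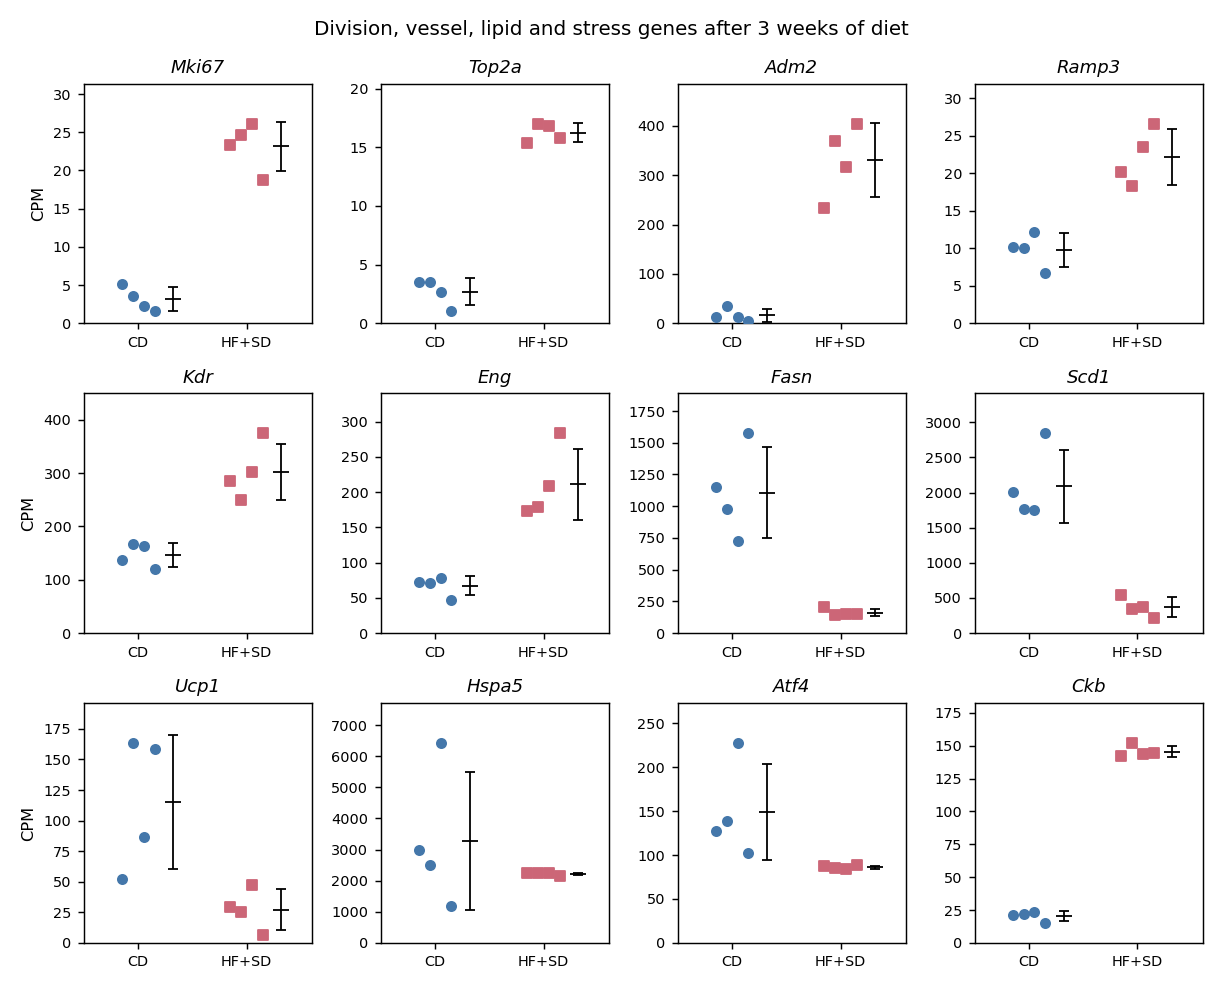
CPM per mouse of genes of division (Mki67, Top2a), vessels (Adm2, Ramp3, Kdr, Eng), fat (Fasn, Scd1, Ucp1), stress (Hspa5, Atf4) and creatine metabolism (Ckb), with CD as blue circles, HF+SD as red squares, and mean with SD in black (n = 4 per diet). The HF+SD mice lie above all CD mice for Mki67, Adm2 and Ckb and below them for Fasn and Scd1, while Hspa5 overlaps and spans 1189 to 6419 CPM within the CD.

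Most markers of blood endothelium rose, together with some genes of the adrenomedullin system. Adm2 encodes intermedin, a vasodilator peptide of the calcitonin family that signals through the receptor Calcrl and its RAMP partners. It was at 11.7, 34.8, 12.5 and 4.43 CPM under CD and 233, 370.2, 317 and 405 under HF+SD (21-fold, log2 fold change 4.39, standard error 0.55, adjusted p = 0.00102). The CD mice differed among themselves, M54 being highest and M96 lowest, and the lowest HF+SD mouse was far above M54. Without M54 the log2 fold change was 5.12. Ramp3, among the partners that make Calcrl an adrenomedullin receptor, rose from 10.2, 10.1, 12.2 and 6.72 to 20.1, 18.3, 23.6 and 26.6 CPM (log2 fold change 1.18, standard error 0.18, adjusted p = 0.00311), and Ackr3, a scavenging receptor, from 12.4 ± 1.4 to 31.1 ± 5.36 (SD, n = 4, adjusted p = 0.000497). Calcrl overlapped between the diets, 16, 13.7, 21.9 and 20.2 against 25.2, 17.7, 18.4 and 21.3 CPM (adjusted p = 0.439). In all, 3 of 8 members of the adrenomedullin system were higher and none lower, beside 9.07% of all genes higher, and 5 were higher without M55.

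Of 25 markers of blood endothelium, 19 were higher and none lower (median 0.69), 5 of them more than 2-fold, beside 9.07% of all genes higher. Their summed level was 953 to 1187 CPM under CD and 1610 to 2339 under HF+SD, without overlap. Eng, endoglin, had 71.9, 71, 78.5 and 47.4 CPM under CD and 173, 179.5, 208 and 283 under HF+SD (log2 fold change 1.65, standard error 0.19, adjusted p = 0.000778), and Pecam1, the junction protein CD31, 106, 97.7, 124 and 95.6 against 169, 161, 189 and 239 (log2 fold change 0.84, adjusted p = 0.00369). M31 had the highest value of either gene. Egfl7, Icam2 and the transcription factor Sox18 rose by 1.19, 1.19 and 1.15 on the log2 scale (adjusted p = 0.00106, 0.00175 and 0.00641). Without M55, 19 markers were higher, and leaving out each mouse gave 14 to 20. Lymphatic endothelium did not show this rise. Of its 8 markers 1 was higher and none lower, near the share of all genes, and 5 lay below 0 (median -0.17). Their summed levels overlapped, 45.5 to 77.3 CPM under CD and 53.4 to 69.9 under HF+SD.

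Angiogenic ligands and receptors were higher in 12 of 25 cases and lower in 2 (median 0.42), beside 9.07% of all genes higher and 5.78% lower. With each mouse left out, 8 (M20y or M31) to 11 were higher and 0 to 2 lower. Kdr, the main receptor of VEGF-A, was at 137, 168, 162 and 119.6 CPM against 284, 250.1, 303 and 375 (log2 fold change 1.05, standard error 0.14, adjusted p = 0.00175). Vegfa itself had 914, 1467, 1199 and 993 CPM under CD and 1726, 1934, 1750 and 1713 under HF+SD (log2 fold change 0.64, standard error 0.14, adjusted p = 0.0158), without overlap, and missed the threshold without M19y (adjusted p = 0.0501). Angpt2, a destabilizing ligand of the receptor TIE2, rose by 1.59 (standard error 0.22, adjusted p = 0.00164), and the ligand apelin, Apln, and its receptor Aplnr rose by 1.43 and 1.00 (adjusted p = 0.000838 and 0.0134). For Aplnr, M31 was at 24.4 CPM and the other HF+SD mice at 13.5 to 14.3, the CD mice lying lower still. Among 16 markers of pericytes and smooth muscle, 5 were higher and none lower, beside 9.07% of all genes higher. With each mouse left out, 1 to 8 were higher (2 without M54, 2 without M96, 8 without M19y, 1 without M20y and 2 without M31). Rgs5, a pericyte marker, rose from 218 ± 14.1 to 331 ± 61.8 CPM (SD, n = 4, adjusted p = 0.0123).

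Collagens and other matrix genes changed in either direction. Of 28 collagen genes, 13 were higher and 3 lower (median 0.36), beside 9.07% of all genes higher and 5.78% lower. The summed level of the collagens was 2236 to 2556 CPM under CD and 3388 to 3979 under HF+SD. Col18a1, a basement membrane collagen and the source of endostatin, had 189, 194, 206 and 170.5 CPM against 375, 413, 396 and 442 (log2 fold change 1.10, standard error 0.09, adjusted p = 0.000174). Fibrillar Col3a1 rose by 1.07 (standard error 0.22, adjusted p = 0.0105), transmembrane Col13a1 by 1.08 (standard error 0.18, adjusted p = 0.00389) and the scarce Col26a1 by 1.67 (standard error 0.32, adjusted p = 0.00856). In the list of TGF-beta and matrix regulators, 10 of 27 were higher and 2 lower, beside 9.07% of all genes higher and 5.78% lower. With each mouse left out, 5 to 11 were higher (6 without M19y, 5 without M20y and 5 without M31). Those lower were Ltbp2 and Timp3, the metalloproteinase inhibitor, which went from 1670, 1459, 2071 and 2318 to 952, 896, 982 and 1001 CPM (adjusted p = 0.00202), with every HF+SD mouse below every CD mouse. Fbn1, fibrillin, rose with Adamtsl2, by 0.96 (standard error 0.17, adjusted p = 0.00522).

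Many genes of fatty acid synthesis fell. Of 24 lipogenic genes, 11 were lower, beside 5.78% of all genes, and 1 was higher (median -0.58), 9 falling more than 2-fold. Fasn, fatty acid synthase, was at 1149, 975, 726 and 1574 CPM under CD and at 204, 139, 149.7 and 149.5 under HF+SD (log2 fold change -2.78, standard error 0.23, adjusted p = 0.000218). Scd1, the stearoyl-CoA desaturase, fell from 2007, 1762, 1745 and 2842 to 546, 340.4, 377 and 207 CPM (log2 fold change -2.51, standard error 0.28, adjusted p = 0.000672). No HF+SD mouse reached the lowest CD mouse in either gene. Acss2, which makes acetyl-CoA from acetate, fell by 2.25. Thrsp, a lipogenic protein induced by thyroid hormone and carbohydrate, fell by 2.21 on the log2 scale (adjusted p = 0.000756, and 0.000255 for Acss2). Mlxipl encodes ChREBP, the sugar-responsive activator of these genes, and fell from 21.4, 22.8, 22.8 and 30.5 to 8.04, 7.83, 7.5 and 5.12 CPM (log2 fold change -1.78, standard error 0.17, adjusted p = 0.000366). Srebf1, the other main activator, overlapped, with 146 ± 18.5 against 161 ± 23.3 CPM (SD, n = 4, adjusted p = 0.478).

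Markers of fat cells moved with these genes. All 14 white adipocyte markers lay below 0 and 11 passed the test (median -1.03), beside 5.78% of all genes lower. None was at 0 counts, and their summed level was 2041 to 2668 CPM under CD and 708 to 1498 under HF+SD. The part of these cells in the lipogenic result was not tested. The mean summed level of the white adipocyte list was 2291 CPM under CD and 1133 under HF+SD, while mean Fasn was 1106 and 161 CPM. Pparg, the master regulator of fat cells, fell from 22.2 ± 3.69 to 9.31 ± 2.09 CPM (SD, n = 4, adjusted p = 0.002), and Adrb3, the adrenergic receptor of adipocytes, from 21.6 ± 7.1 to 8.09 ± 2.52 (adjusted p = 0.00965). Car3, an enzyme abundant in fat, fell by 1.18 on the log2 scale (adjusted p = 0.0142). Pck1, of glyceroneogenesis, fell by 1.22 (adjusted p = 0.0305), a call lost without M53, M19y, M20y or M31 (adjusted p = 0.0558 to 0.0805).

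Brown adipocyte markers were lower in 6 of 10 cases, beside 5.78% of all genes, and higher in none (median -1.57). Their summed level was 233 to 455 CPM under CD and 131 to 225 under HF+SD. Ucp1, the uncoupling protein of brown fat, had 52.6, 163, 86.5 and 159 CPM against 29.5, 25.6, 47.5 and 6.19 (log2 fold change -2.08, standard error 0.55, adjusted p = 0.0309), and its call was lost without M54, M96, M7 or M19y (adjusted p = 0.0563 to 0.082). Cidea, a lipid droplet protein, fell from 45, 72.4, 57.5 and 64.4 to 17.1, 15.2, 19.8 and 5.14 CPM (log2 fold change -2.07, standard error 0.34, adjusted p = 0.00427). Elovl3, an elongase of brown and sebaceous fat, had the lowest fold change of all tested genes (-5.36, standard error 0.84, adjusted p = 0.00322), on 136, 111, 22 and 240 counts in the CD and 1, 5, 6 and 0 in the HF+SD mice. Of 32 genes of fatty acid uptake and oxidation, 10 were lower and 2 higher (median -0.23), beside 5.78% of all genes lower and 9.07% higher. With each mouse left out, 1 to 4 of them were higher. Pnpla2, the triglyceride lipase ATGL, fell by 0.92 and the nuclear receptor Ppara fell by 0.80 (adjusted p = 0.000958 and 0.0117), while Ucp2 rose from 149, 122, 134 and 133 to 245, 236, 258 and 262 CPM (adjusted p = 0.000274).

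**Figure D3:**
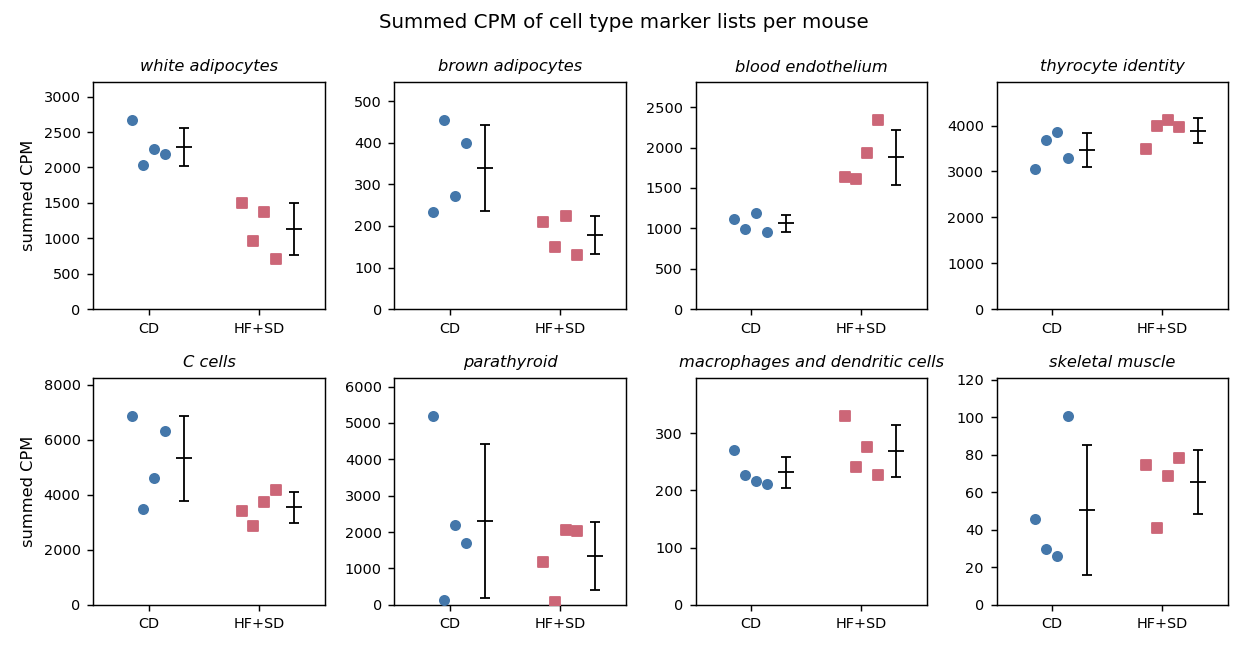
Summed CPM of the tested members of cell type marker lists in each mouse, with CD as blue circles, HF+SD as red squares, and mean with SD in black (n = 4 per diet). The white and brown adipocyte lists are lower and the blood endothelium list higher in all HF+SD mice, the parathyroid list spans 135 to 5195 CPM within the CD, and the thyrocyte and skeletal muscle lists overlap.

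Some genes of sugar handling changed, with a list median of 0.0006. Of 23 genes, 4 were lower and 1 was higher, beside 5.78% of all genes lower and 9.07% higher. Hk2, the insulin-responsive hexokinase, fell from 16.3, 16.6, 25.3 and 28.4 to 8.28, 5.81, 5.79 and 3.83 CPM (log2 fold change -1.87, standard error 0.26, adjusted p = 0.00164), and Slc2a3, the glucose transporter GLUT3, fell by 1.57, and Ldha fell by 0.49 on the log2 scale (adjusted p = 0.00337 and 0.00538). Among the lowest fold changes were Gys2, a glycogen synthase, at 3 ± 1.11 against 0.548 ± 0.339 CPM (SD, n = 4, adjusted p = 0.0121) and Ppp1r3b, which targets a phosphatase to glycogen, at 12.6 ± 7.26 against 2.11 ± 0.755 (adjusted p = 0.00371). These are scarce transcripts, and the ranking took only genes without overlap between the diets. Cholesterol synthesis gave 2 higher and 2 lower of 24, near the 9.07% and 5.78% of all genes. Without M55 it gave 4 higher and 3 lower, with a median of -0.18 moving to -0.02, and without M19y, M20y or M31 1 was lower. Dhcr7, a late enzyme of the pathway, rose by 0.75 (standard error 0.15, adjusted p = 0.00975).

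**Figure D4:**
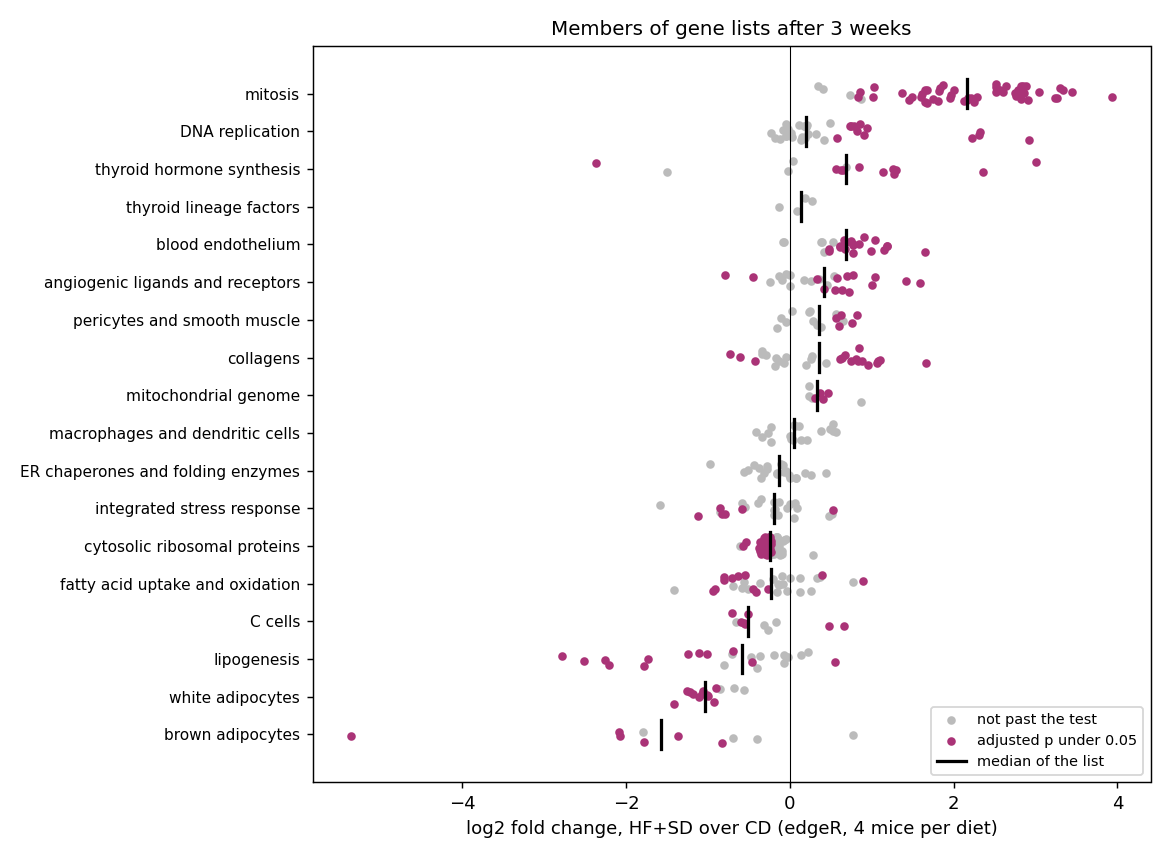
Log2 fold change (HF+SD over CD) of each tested member of 18 gene lists, with members at an adjusted p under 0.05 in purple, the others in grey, and the median of each list as a black bar. Mitotic genes all lie right of 0 (median 2.17), white adipocyte markers all lie left of it (median -1.03), and the ER chaperones hold no called member.

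The ER folding genes did not pass the test, and their CD values were widely spread. None of 22 chaperones and folding enzymes was called in either direction (median -0.13), where 14.9% of all genes were. Hspa5, the ER chaperone BiP, had 2994, 2504, 6419 and 1189 CPM under CD and 2241, 2243, 2233 and 2158 under HF+SD (log2 fold change -0.56, standard error 0.39, adjusted p = 0.365). M55 held the highest value and M96 the lowest, with the HF+SD mice close together between them. The same spread was seen in the summed level of the list, 9342 to 24610 CPM under CD and 13500 to 14770 under HF+SD. Without M55 the median was 0.02 and 2 members were higher, and without M96 2 were lower. The translocon and COPII list, 1 of 35 members higher, turned in the same way, from a median of -0.14 to 0.08 without M55.

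Some calls on sensors of ER stress and genes of the integrated stress response were lost when 1 mouse was left out. Of 18 genes of ER-associated degradation and stress sensing, 3 were lower and 2 higher, and of 25 genes of the integrated stress response 5 were lower and 1 higher. Beside them stand 5.78% of all genes lower and 9.07% higher. With each mouse left out, the first list gave 0 to 5 lower and 0 to 5 higher, with 5 higher and 4 lower without M55 and no call without M7. The integrated stress response gave 3 to 6 lower and 0 to 4 higher, with 4 higher and 5 lower without M55. Herpud1 had 373, 336, 481 and 123 CPM under CD and 128, 123, 173 and 152 under HF+SD (log2 fold change -1.19, standard error 0.33, adjusted p = 0.0396), and Syvn1, the ubiquitin ligase HRD1, 172, 141, 406 and 104 against 82, 84.1, 92 and 87.4 (log2 fold change -1.25, adjusted p = 0.0423). M55 was highest among the CD mice in either gene. Their calls were fragile, being lost for Herpud1 when any mouse but M96 was left out (adjusted p = 0.0591 to 0.104) and for Syvn1 when M53 or any HF+SD mouse was (adjusted p = 0.0634 to 0.104). Atf4, the transcription factor at the centre of the response, fell from 128, 139, 228 and 103 to 87.4, 85.2, 84.7 and 88.2 CPM (adjusted p = 0.0306), a call lost when any HF+SD mouse was left out (adjusted p = 0.0707 to 0.0785). Its targets Trib3 and Eif4ebp1 fell by 0.83 and 0.86, and Cebpb fell by 1.12 on the log2 scale (adjusted p = 0.0123, 0.00248 and 0.00529). The calls of Trib3, Eif4ebp1 and Cebpb held in every fit without 1 mouse. Ddit3, or CHOP, overlapped between the diets at 33.3, 24.9, 43.2 and 11.2 against 13.3, 13.3, 19 and 16.7 CPM (adjusted p = 0.115, and 0.0102 without M96). The heat shock list was lower in 4 of 13 cases, beside 5.78% of all genes, and in 2 without M7 or M20y. Hspa1b and Hspa1a fell by 1.24 and 0.81, though reads of these near-identical copies may be split between them.

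Ribosomal and mitochondrial genes showed small changes. Of 80 cytosolic ribosomal protein genes, 39 were lower and none higher (median -0.24), and 79 lay below 0. The number called lower ran from 4 to 43 as each mouse was left out (14 without M53, 24 without M96, 17 without M7, 5 without M19y, 7 without M20y and 4 without M31), while the median stayed between -0.26 and -0.21. Over all genes, 472 were lower without M31 and 1381 without M55. Rps19, of the small subunit, fell from 219.8, 205, 231 and 237 to 156, 153, 161 and 148 CPM (adjusted p = 0.0016). Many ribosomal protein genes have processed copies in the genome, which can share reads with them. Eif4b, an initiation factor, fell by 0.37 (adjusted p = 0.0067), in a list of 37 factors with 3 lower and none higher, beside 5.78% of all genes lower. That count was 1 without M31 and 5 without M55, where the median went from -0.19 to -0.07. Of 8 tested genes of the mitochondrial genome, 4 were higher and none lower (median 0.34), beside 9.07% of all genes higher. With each mouse left out, 2 to 7 were higher (7 without M55, 2 without M7 and 2 without M19y). Their summed level was 19650 to 23110 CPM under CD and 24760 to 26630 under HF+SD. mt-Cytb, cytochrome b of complex III, rose by 0.40 (standard error 0.08, adjusted p = 0.0107). Nuclear subunits of the respiratory chain were higher in 8 of 74 cases and lower in none, beside 9.07% of all genes higher, with a median of 0.11. Leaving out each mouse gave 1 (M20y) to 13 (M55) higher, where all genes gave 987 without M20y and 2012 without M55. The count with all mice was near the share of all genes. Sdhd of complex II rose from 95.3 ± 4.02 to 135 ± 5.18 CPM (SD, n = 4, adjusted p = 0.00136). Sod3, the extracellular superoxide dismutase, rose from 112, 154, 173 and 85 to 509.5, 511, 529 and 488 CPM (log2 fold change 1.96, standard error 0.20, adjusted p = 0.000421). It had the largest change among 34 antioxidant genes and selenoproteins. Of these, 2 were higher and 2 lower, beside 9.07% of all genes higher and 5.78% lower.

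Amino acid transporters moved in opposite directions, 4 higher and 4 lower of 21, beside 9.07% of all genes higher and 5.78% lower. Slc38a3, a glutamine carrier, rose from 26.7, 57.3, 77.7 and 30.5 to 171, 156, 142 and 173 CPM (log2 fold change 1.74, standard error 0.30, adjusted p = 0.00529), and Slc7a7, a subunit that exchanges cationic amino acids, by 1.36 (standard error 0.12, adjusted p = 0.000274). Slc6a9, the glycine transporter GLYT1, fell from 34.9, 34.9, 50.8 and 46.6 to 17.7, 18.2, 17.4 and 18.9 CPM (log2 fold change -1.21, standard error 0.13, adjusted p = 0.000598). None of these overlapped between the diets.

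Other cells of the tissue were read from their markers, whose counts stand beside 9.07% of all genes higher and 5.78% lower. Among 11 C cell markers, 5 were lower and 2 higher (median -0.51), and 1 was higher without M53, M96, M19y, M20y or M31. Calca, the calcitonin gene, had 3880, 2697, 3044 and 4444 CPM under CD and 2314, 2238, 2235 and 2506 under HF+SD (log2 fold change -0.60, standard error 0.15, adjusted p = 0.0254), and its call was lost when M53 or any HF+SD mouse was left out (adjusted p = 0.0546 to 0.078). Scg2, secretogranin II, fell from 535 ± 66.6 to 329 ± 20 CPM (SD, n = 4, adjusted p = 0.00227), and Slc18a1, a monoamine transporter, rose by 0.67 (standard error 0.14, adjusted p = 0.0119). None of 19 macrophage and dendritic cell markers and none of 6 parathyroid markers passed the test. The CD mice had 2889, 20.2, 1433 and 608 CPM of Pth and the HF+SD mice 594, 2.1, 1065 and 918 (log2 fold change -0.94, -0.09 without M53, adjusted p = 0.676), a gene named after its values were seen. The thyrocyte identity list, 9 genes, had 1 higher, Cdh16, and 1 lower, the keratin Krt18, whose call was lost when any HF+SD mouse was left out (adjusted p = 0.0548 to 0.0646).

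Among the genes chosen by their rank, the highest fold changes were those of Dcpp3 and Dcpp1, secreted proteins known from the sublingual gland. Dcpp3 was at 0.47, 0.197, 0.386 and 0.308 CPM under CD and 39.2, 39.2, 20.4 and 51.5 under HF+SD (log2 fold change 6.76, standard error 0.35, adjusted p = 1.8e-05), and Dcpp1 at 0.297, 0.0282, 0.103 and 0.071 against 14.3, 14.9, 7.19 and 16.6 (log2 fold change 6.67, adjusted p = 0.000133). All HF+SD mice held these transcripts, M20y the least. Without M53 the log2 fold change of Dcpp1 was 7.53. Dcpp1, Dcpp2 and Dcpp3 are close copies, and even the 200 bases before their starts are 94.5% to 96.5% identical in GRCm38.p6, so how reads were split among them is uncertain. Of 4 salivary gland markers tested, 3 were higher, all of them Dcpp genes, and the amylase Amy1 was lower, from 13.2 ± 1.72 to 6.79 ± 1.64 CPM (SD, n = 4, adjusted p = 0.00721). Others at the top of the ranking were Mybpc3, the cardiac myosin binding protein C, with 1, 2, 4 and 1 counts under CD and 102, 126, 88 and 126 under HF+SD (adjusted p = 7.3e-05), and Lingo1, a neuronal membrane protein (0.223, 0.141, 0.309 and 0.118 against 4.28, 5.3, 4.27 and 11 CPM, adjusted p = 0.000255). Of 26 skeletal muscle markers 2 were higher and none lower, beside 9.07% of all genes higher and 5.78% lower. Their summed levels were 26.1 to 101 CPM under CD and 40.8 to 78.4 under HF+SD. At the other end, Gprc5a, a retinoic acid-induced receptor, was at 98.4, 44.1, 299.9 and 124 CPM against 20.3, 21, 23.3 and 20.3 (log2 fold change -2.74, standard error 0.48, adjusted p = 0.00531), with M55 by far the highest. Without M55 its log2 fold change was -2.07.

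The mice at 6 weeks were set beside these values. Their CD controls are other animals, and the prefix of the library names changes with the time point. What the prefix stands for is not given, and its part cannot be told apart from that of time. Of the 2560 genes changed after 3 weeks, 2544 were also tested at 6 weeks, and 2163 of them (85%) lay on the same side of 0 there, beside 64.3% of all 17024 genes tested at both times. Among the genes changed at least 2-fold, 724 of 787 (92%) did so. List medians at 3 and 6 weeks were 2.17 and 2.48 for mitosis, 0.69 and 1.51 for blood endothelium, 0.69 and 1.32 for thyroid hormone synthesis, and -0.58 and -1.08 for lipogenesis. The ER chaperones had a median of -0.13 at 3 weeks and of 0.57 at 6 weeks, and the nuclear respiratory chain subunits of 0.11 and -0.66. The skeletal muscle list, at -5.45 at 6 weeks and 0.72 at 3 weeks, had a median farther from 0 at the later time than any other list given here. With the level of that list as a covariate in the 6 week fit, 89.2% of the changed genes lay on the same side. Its part in the list medians was not tested.

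**Figure D5:**
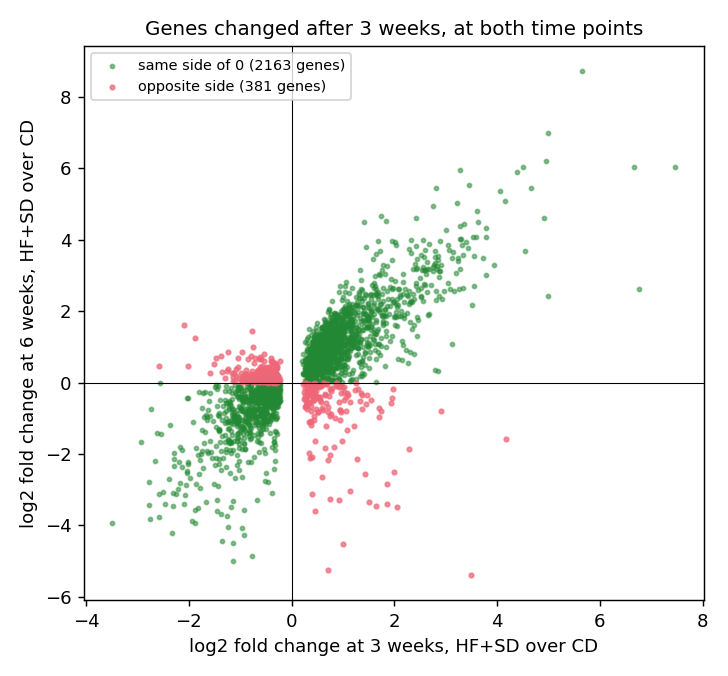
Log2 fold change (HF+SD over CD) at 3 weeks on the horizontal axis and at 6 weeks on the vertical axis for the genes changed after 3 weeks, 1 point per gene. Green points, 2163 genes, lie on the same side of 0 at either time, and red points, 381 genes, do not.

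The difference between the time points was also tested directly, as the interaction of diet and time over all 16 libraries. It passed for 15 of 18929 genes (0.0792%), 8 of them among the genes changed after 3 weeks, while 806 of those genes were at an unadjusted p under 0.05. The count of 8 was unstable, running from 0 (without M7 or M20y) to 562 (without the 6 week CD mouse M22) as each mouse was left out, and it was 275 without M43, 22 without M54 and 20 without M96. Fbp1 was among the 8 genes, with 2.01 at 3 weeks and 3.92 at 6 weeks on the log2 scale (interaction adjusted p = 0.0448), as was Slco4a1, with 1.45 and 3.80 (interaction adjusted p = 0.0438). In 7 of these 8 genes the change was larger at 6 weeks. The exception was the collagen Col12a1, named after its values were seen, which was at -0.73 at 3 weeks and 0.56 at 6 weeks (interaction adjusted p = 0.014).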

How the data were processed

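Whole thyroids of single mice were measured by poly(A) RNA sequencing. According to the submitters' processing notes, the authors trimmed reads with Trim Galore 0.6.7, aligned them with STAR to mm39 and worked in DESeq2 1.36.0 under R 4.1.0. How reads were counted per gene, and on which annotation, is not given in the sources used here. The authors deposited raw counts per gene and a normalized signal, which is the count divided by 1 size factor per library. The raw counts were analysed here, and the deposited signal served as an alternative.

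Genes were kept by filterByExpr, libraries scaled by the trimmed mean of M-values, and diets compared in the 3 week libraries with the quasi-likelihood test of edgeR 4.0.16 in R 4.3.3, two-sided, with Benjamini-Hochberg adjustment over all tested genes and a threshold of 0.05. The standard error is the log2 fold change over the square root of F. The interaction was fitted on all 16 libraries. CPM per mouse and the exact permutation test, whose smallest p with 4 against 4 mice is 0.0286, used the same scaling, the latter on log2 CPM with a prior count of 2. DESeq2 1.42.0 and limma 3.58.1 gave alternatives. The script was tested on simulated data. All 16 columns matched a mouse, and 0 further columns of per-sample values were left unmapped.

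The genes named are the 12 highest and 12 lowest fold changes without overlap and with a mean of at least 2 CPM, the 10 lowest p-values in each direction, up to 4 called members of each list, and the members that give a list its function. The lists and genes were chosen with earlier results of these data known. Some members that the lists hold are not reported here by name. Replicates are different mice, and pairs of the same diet differed far beyond the value near 1 chi-square unit per gene that sampling noise gives. Pairs of CD mice differed by 31.9 to 104 units, and by 31.9 to 39.4 where neither was M55. Pairs of HF+SD mice differed by 15.1 to 23.3, so the CD mice were the more spread. Promoter windows came from RefSeq for GRCm38.p6, a different build from that of the counts, and were matched by symbol. Alternatives covered the tool, scaling, filter, samples in the fit and each mouse left out.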

Additional observations from a re-analysis of the deposited data

Results flagged for a closer look

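Single mice stood far from the other 3 of their diet in 16 of 288 groups of 4 CPM values, by Dixon's test, where chance gives about 1 in 20. On the CD, M55 was apart for Hspa1b (104.6 CPM), Trpv4 (84.3) and Pde4b (3.63, the lowest). M96 was the highest CD mouse for Duoxa1 (4.21 CPM), H2-Q10 (13.5), Mlxipl (30.5), Pnpla2 (281) and Thrsp (276), and M54 for Ppara (8.07). On the HF+SD, M31 was highest for Aplnr (24.4 CPM), Col26a1 (4.12) and Lingo1 (11) and lowest for Hspa5 (2158), where the other 3 mice lay at 2233 to 2243. M7 was highest for E2f8 (1.77 CPM) and Fasn (204), and M19y for Vegfa (1934). What set these mice apart was not tested.

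The diet effect differed between 6 and 3 weeks, by the interaction test in edgeR, for Fbp1 by 1.86, for Slco4a1 by 2.30 and for Col12a1 by 1.24 on the log2 scale, the later value being the higher. The prefix of the library names and the muscle RNA also changed between the time points, and their part in these differences was not tested.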

How the results depend on the processing

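No paired analysis was possible because the labels name each mouse and no name or number is shared between the diets. The 2560 changed genes became 1420 in 1 fit of all 16 libraries, of which 1318 were shared, 3644 by DESeq2's Wald test, of which 2556 were shared, 1775 when scaled to the thyrocyte identity list, and 1448 to 3393 as each mouse was left out. The 803 genes at 2-fold were 143 when the test itself was set against a log2 fold change of 1 (glmTreat), and 623 to 976 as each mouse was left out. The 8 interaction genes were 58 with at least 10 counts in every library, 46 with DESeq2 size factors, and 0 to 562 as each of the 16 mice was left out, an alternative chosen after seeing the data. The share on the same side at 6 weeks, 85%, was 89.2% with the muscle covariate and 82.7% to 87.9% as each 6 week mouse was left out, also added after seeing the data. With each mouse left out, the log2 fold change of Tg ran from -0.011 (M53) to 0.078 (M55). List medians ran from -0.029 (M55) to 0.36 (M54) for lineage factors, -0.285 (M96) to 0.025 (M55) for ER chaperones, -0.218 (M96) to 0.080 (M55) for the translocon, -0.871 (M31) to 0.137 (M53) for the parathyroid and -0.038 (M7) to 0.160 (M53) for macrophages. None of these had passed the test or held more than 1 called member. The other alternatives turned no direction of the 144 named genes or 31 lists, and 115 of the 136 called genes were called in each of the 8 fits without 1 mouse, 39 losing the call in the fit of all 16 libraries. The cause of these changes was not tested. With at least 34031421 counts in each library, depth limits mainly the genes with few counts, such as Slc26a4 and Elovl3.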

Other observations

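Of 18 clock genes tested, 4 were lower and 1 was higher under HF+SD, with a median log2 fold change of -0.47, beside 9.07% of all genes higher and 5.78% lower. Leaving out each mouse gave 1 (M20y) to 5 (M55) lower and 0 to 2 higher. Nfil3, a repressor of clock output, was at 2.2, 3.5, 4.86 and 1.61 CPM under CD and 6.8, 9.5, 9.31 and 5.07 under HF+SD (adjusted p = 0.0263), and Tef, an activator of the same output genes, at 61.9, 78.7, 75.6 and 115 against 54.2, 27.1, 33.5 and 55.2 (adjusted p = 0.0328). Per1 and Per3, of the negative arm, fell by 1.10 and 1.00 on the log2 scale (adjusted p = 0.00356 and 0.0353). The call was lost for Nfil3 without M53, M19y or M20y (adjusted p = 0.0695 to 0.0753), for Tef without M96, M19y or M20y (0.0713 to 0.0973) and for Per3 without M54, M96 or any HF+SD mouse but M31 (0.0639 to 0.102). According to the paper, the groups were taken in rotation so that collection times were random. The hour at which each gland was taken was not used here, and its part in these values was not tested.

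Of 20 interferon and antigen presentation genes, 3 were lower and none higher, beside 5.78% of all genes lower. The count ran from 2 to 6 with each mouse left out, 6 without M55, and the summed level was 1765 to 2075 CPM under CD and 1447 to 1596 under HF+SD. H2-K1, a class I heavy chain, was at 483 ± 22.1 against 378 ± 19.6 CPM (SD, n = 4, adjusted p = 0.0117), and the related H2-Q10 at 10.2 ± 2.24 against 1.97 ± 0.692 (adjusted p = 0.000722), though reads of such close relatives can be split between them. Cd74, the class II invariant chain, fell by 0.61 on the log2 scale (adjusted p = 0.0119). Tekt1, a tektin of cilia, rose from 10.1, 22.6, 25.3 and 7.88 to 66.1, 83.1, 64.8 and 55.4 CPM (log2 fold change 2.04, standard error 0.35, adjusted p = 0.00467). It was the sole call among 10 airway epithelium markers tested, none passing downward, beside 9.07% of all genes higher. Other genes chosen by their rank were Slc44a4, a choline transporter, which rose by 1.18 (standard error 0.09, adjusted p = 0.00015), and Aspg, an asparaginase, which fell by 2.76 (adjusted p = 0.00158).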
